A study of Homo sapiens with 9 samples.

Results

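The kinesins are motor proteins that walk along, cross-link or shorten microtubules. The genes described here are the 42 protein-coding genes in the count files whose symbol is KIF followed by a number and an optional letter, or KIFC1, KIFC2 or KIFC3, out of 58395 genes listed. They were taken by symbol and sorted by textbook role. The classes are 14 mitotic kinesins, 17 transport kinesins, 1 kinesin that belongs to both (KIF2A), 6 kinesins of the cilium or flagellum and 4 others. The family and its classes were chosen with earlier results of these data known, so they are described and not tested as a set. RNA-seq counts came from MDA-MB-231 cells (MDAMB231 in the labels), an established human cell line of triple negative breast cancer, in 3 groups of 3 libraries. SKP2-1 cells received the first siRNA against SKP2, SKP2-2 cells received the second, and NC cells received a nontargeting control siRNA. All groups were the same line in DMEM with serum and antibiotics, reverse transfected for 96 h, and total RNA was taken with an RNeasy mini kit and DNase I. The groups model a transient knockdown in 1 line, and the siRNA sequences and doses are not given in the sources used here.

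Mitotic kinesins build and focus the spindle, move and align chromosomes, and complete cytokinesis, and most of them are made mainly in late S, G2 and M phase of the cell cycle. Transport kinesins carry vesicles, endosomes, mitochondria and other cargo in dividing and non-dividing cells alike, often through light chains or adaptor proteins. SKP2 is the substrate-binding subunit of an SCF ubiquitin ligase that marks cell cycle inhibitors such as p27 for degradation. The comparison between the 2 kinds of kinesin follows these textbook roles, and how far each motor depends on the cell cycle was not measured.

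SKP2 averaged 3.58 CPM (counts per 1 M gene counts) in SKP2-1 cells and 5.96 CPM in SKP2-2 cells, against 62.1 CPM in NC cells, so both knockdowns are visible in the data. SLC39A7, which encodes the zinc transporter ZIP7 that the series' design text names in place of SKP2, averaged 343, 364 and 342 CPM in SKP2-1, SKP2-2 and NC cells and did not pass the test with either siRNA. Library totals ran from 35.5 to 49.9 M gene counts. Of the markers of mesenchymal triple negative cells, VIM, CD44 and AXL were abundant in every library, while SPARC and CDH2 were below 5 CPM. Of 8 markers listed as low in triple negative cells, ESR1 and PGR were too low to be tested. Among the others, KRT8 averaged 315, 413 and 340 CPM and ERBB2 94.5, 88.2 and 84.1 CPM in SKP2-1, SKP2-2 and NC cells. In the same order GATA3 averaged 12.1, 12.9 and 11.2 CPM and EPCAM 10.2, 6.92 and 7.93 CPM. CDH1 averaged 8.15, 3.89 and 12.4 CPM and FOXA1 0.568, 0.248 and 0.503 CPM. Of the listed markers of other cells, CD3E, CD68, VWF, CDH5 and DCN were at or near 0, while PECAM1, PDGFRB, LUM and PTPRC were detected. The 9 markers of other cells reported here summed to 20.6 to 21.4 CPM in SKP2-1 libraries, 12.4 to 14.4 CPM in SKP2-2 libraries and 11.8 to 13.0 CPM in NC libraries. Of the 4 that could be tested (PTPRC, PECAM1, PDGFRB and LUM), 4 were higher with SKP2-1 siRNA and 2, PTPRC and LUM, with SKP2-2 siRNA. PTPRC averaged 1.04, 0.850 and 0.419 CPM and PECAM1 9.32, 3.62 and 4.03 CPM in SKP2-1, SKP2-2 and NC cells. Their part in the results was not tested. On the third principal component, which held 11.6% of the variance, SKP2-2 replicate 3 (-14.63) and NC replicate 1 (-30.28) lay opposite SKP2-2 replicate 1 (21.7) and NC replicate 3 (21.18). Results on KIFC3, KIFC2, KIF1C, KIF7, KIF1B and KIF26B rest in part on those libraries and are given with and without them. Where nothing says that replicates came from separate cultures, p-values measure only the spread between these libraries, which may be technical. The fit shared 1 estimate of the spread per gene over all 9 libraries, though the groups were unequal. Between pairs of replicates the chi-square per degree of freedom was 2.65 to 2.75 in SKP2-1 cells. It was 9.86 to 30.2 in SKP2-2 cells and 8.77 to 57.41 in NC cells.

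Expression of the mitotic kinesins fell with both siRNAs, and that of the transport kinesins did not move in 1 direction. A gene was called when its Benjamini-Hochberg adjusted p from edgeR's quasi-likelihood test, taken over all 16575 genes tested, was under 0.05. Enough counts for the test were present for 34 of the 42 kinesins. With SKP2-1 siRNA 23 of the 34 were called, 6 higher and 17 lower, where 45.5% of all genes tested were called. With SKP2-2 siRNA 21 were called, 6 higher and 15 lower, against 49.4% of all genes. At least 2-fold higher was only KIF26B with SKP2-1 siRNA (2.98% of all genes) and only KIF17 with SKP2-2 siRNA (3.31% of all genes). Over all genes the SKP2-1 calls were 4150 higher and 3398 lower, and with SKP2-1 and NC cells fitted alone they were 3341 higher and 4255 lower.

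Of the 13 mitotic kinesins tested, 12 were lower than in NC cells with each siRNA and 0 were higher, where 20.5% of all genes were called lower with SKP2-1 siRNA and 24.1% with SKP2-2 siRNA. All 12 were at least 2-fold lower with SKP2-1 siRNA, as were 2.93% of all genes, and 9 of the 12 were with SKP2-2 siRNA, as were 3.55% of all genes. The median log2 fold change of the mitotic kinesins was -1.42 with SKP2-1 siRNA and -1.06 with SKP2-2 siRNA, beside medians of 0.02 and 0.03 over all genes. These are bulk RNA samples, so fewer cells in mitosis and less kinesin mRNA per cell cannot be told apart. Of the 13 transport kinesins tested, 5 were higher and 3 lower with SKP2-1 siRNA, and 5 were higher and 1 lower with SKP2-2 siRNA, where 25% and 25.2% of all genes were called higher. The split with SKP2-1 siRNA was 3 higher and 3 lower without SKP2-1 replicate 2 or without SKP2-1 replicate 3, and 3 higher and 4 lower with the groups SKP2-1 and NC fitted alone or when genes under 1 CPM were left out, a filter that gave 3 higher and 1 lower with SKP2-2 siRNA. Their median log2 fold change was 0.05 with SKP2-1 siRNA, which turned to -0.05 when only genes above 1 CPM in at least 3 libraries were tested, and 0.18 with SKP2-2 siRNA.

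**Figure D1:**
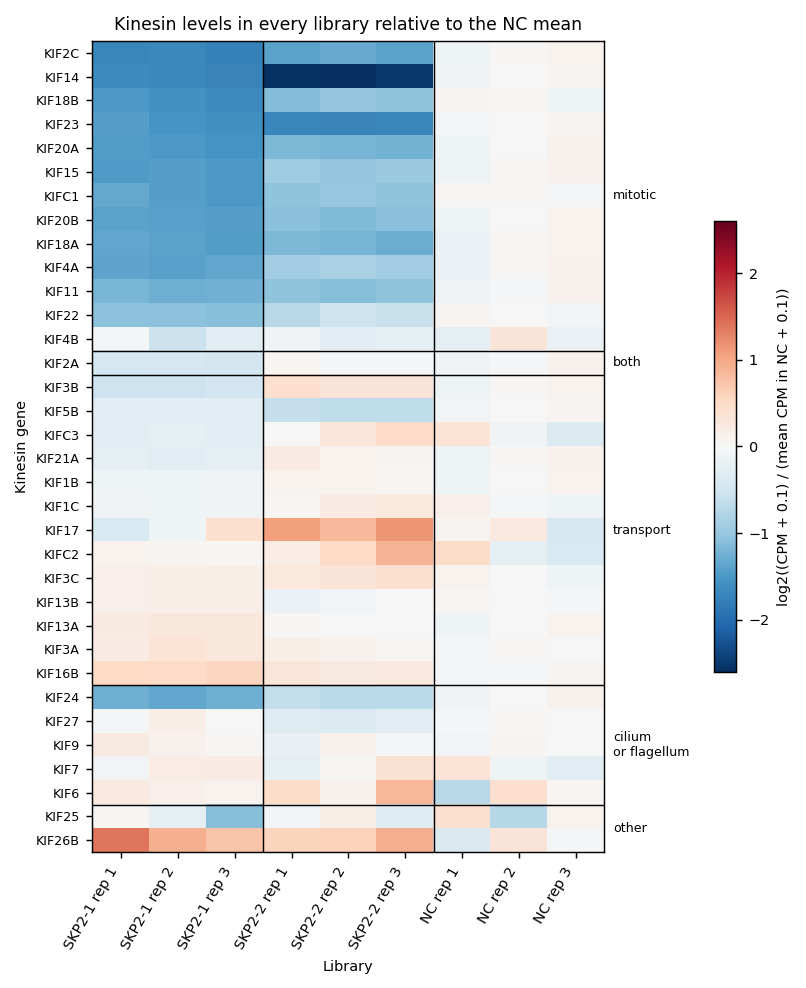
Heat map of the 34 tested kinesins (rows, by role) in the 9 libraries (columns), coloured by the log2 ratio of each CPM to the NC mean after adding 0.1 CPM to both. The mitotic block is blue in all SKP2-1 and SKP2-2 libraries, though only pale for KIF4B, KIF14 is darkest in SKP2-2 libraries, and the transport block holds both colours.

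Summed over the class and scaled to exon length, the mitotic kinesins stood at 146 ± 4.48 CPM per kilobase in SKP2-1 cells and 177 ± 1.45 in SKP2-2 cells, against 399 ± 16.7 in NC cells (mean ± SD, n = 3 each). The single libraries gave 150.4, 145 and 141 CPM per kilobase with SKP2-1 siRNA, 176, 179 and 177 with SKP2-2 siRNA, and 381, 402 and 414 in NC cells. No SKP2 library came near the lowest NC library. The transport kinesins summed to 217 ± 0.991 CPM per kilobase in SKP2-1 cells, 233 ± 7.94 in SKP2-2 cells and 245 ± 2.51 in NC cells, a far smaller difference. Every SKP2 library was still below every NC library, with 241.4 as the highest SKP2 sum and 243.5 as the lowest NC sum. KIF5B alone gave 87.1, 67.3 and 105 CPM per kilobase of these sums in SKP2-1, SKP2-2 and NC cells. Mitotic members made up 37.9 ± 0.81% of the whole kinesin pool per kilobase in SKP2-1 cells and 40.4 ± 0.695% in SKP2-2 cells, against 59.1 ± 1.08% in NC cells. Transport members made up 56.4%, 53.1% and 36.4% in SKP2-1, SKP2-2 and NC cells, so transport members held the larger share with each siRNA and mitotic members held it in NC cells.

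**Figure D2:**
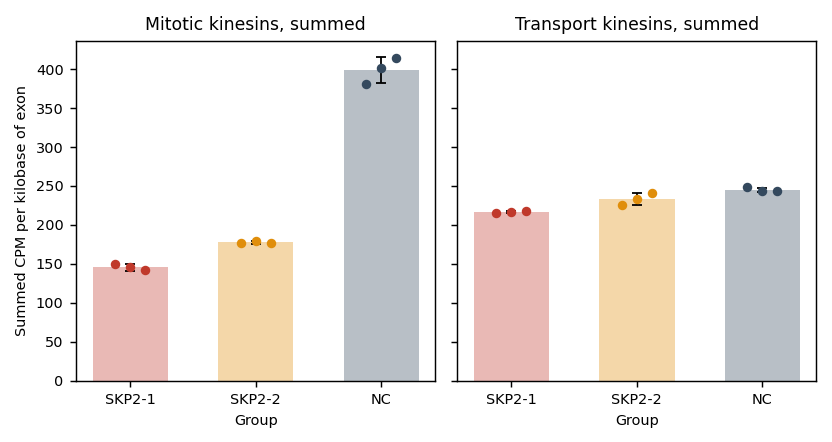
Summed CPM per kilobase of exon for the mitotic (left) and transport (right) kinesins, with bars for group means, whiskers for the SD and points for the 3 libraries of each group. Mitotic sums lie between 141 and 179 in the SKP2 libraries and between 381 and 414 in NC libraries. Transport sums lie between 216 and 241 in the SKP2 libraries and between 244 and 248 in NC libraries.

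The order of the genes per kilobase of exon differed between the groups. KIF5B, the ubiquitous heavy chain of kinesin-1, was the most abundant kinesin in every group, with 22.6% of the pool in SKP2-1 cells, 15.3% in SKP2-2 cells and 15.6% in NC cells. In both SKP2 groups the transport members KIF1C and KIF3B held the second and the third places, and KIF2C stood 6th in SKP2-1 cells and 5th in SKP2-2 cells. In NC cells the mitotic members KIF2C, KIFC1, KIF20A and KIF11 followed KIF5B, at 62.0 ± 4.11, 55.001 ± 1.80, 51.9 ± 3.94 and 46.8 ± 3.58 CPM per kilobase. Neighbours in that order were apart by less than 2 times the larger of their SDs. KIF14 was 19th in SKP2-1 cells, 24th in SKP2-2 cells and 13th in NC cells.

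Promoter sequence was read for the kinesins because the mitotic members moved together. Genes of late cell cycle phases often carry a cell cycle genes homology region (CHR), bound by MuvB complexes, at the transcription start, and a CCAAT box, bound by NF-Y, upstream of it. Windows of 250 bases before to 50 after the start, from the RefSeq promoter table on GRCh38.p14, were found for 34 of the 42 kinesins. They were searched on both strands for the canonical CHR form TTTGAA, for 2 of its variants, namely the form TTCGAA and then the form TTTAAA, and for the CCAAT box. Both variants read the same on either strand, the motifs share no overlapping match in the kinesin windows, and each kind was counted by itself. A stretch of 100 bases, from 80 before the start to 19 after the first transcribed base, is shown for 5 mitotic kinesins that fell with both siRNAs, for KIF24, and for the transport members KIF3B and KIF5B as contrast. Capitals mark CHR motifs and CCAAT boxes, which appear as their reverse complements where they lie on the other strand.
KIF14 (chr1:200620732-200620831, minus strand): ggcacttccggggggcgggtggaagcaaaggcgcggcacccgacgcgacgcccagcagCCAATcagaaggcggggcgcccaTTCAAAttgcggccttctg
KIF23 (chr15:69414269-69414368, plus strand): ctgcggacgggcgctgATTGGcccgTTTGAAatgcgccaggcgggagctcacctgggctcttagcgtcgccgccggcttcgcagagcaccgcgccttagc
KIF2C (chr1:44739757-44739856, plus strand): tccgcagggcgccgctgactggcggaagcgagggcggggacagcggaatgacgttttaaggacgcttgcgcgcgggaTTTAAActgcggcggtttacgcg
KIF18A (chr11:28108137-28108236, minus strand): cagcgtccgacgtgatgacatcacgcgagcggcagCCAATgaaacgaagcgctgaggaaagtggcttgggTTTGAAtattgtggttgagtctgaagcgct
KIF20A (chr5:138179032-138179131, plus strand): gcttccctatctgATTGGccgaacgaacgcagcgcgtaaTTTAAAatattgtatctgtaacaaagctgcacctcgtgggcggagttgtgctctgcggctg
KIF24 (chr9:34329249-34329348, minus strand): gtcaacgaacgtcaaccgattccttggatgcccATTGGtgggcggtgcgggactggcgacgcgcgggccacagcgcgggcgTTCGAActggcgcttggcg
KIF3B (chr20:32277571-32277670, plus strand): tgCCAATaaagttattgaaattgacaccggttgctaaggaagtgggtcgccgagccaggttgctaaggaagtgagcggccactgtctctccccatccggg
KIF5B (chr10:32056406-32056505, minus strand): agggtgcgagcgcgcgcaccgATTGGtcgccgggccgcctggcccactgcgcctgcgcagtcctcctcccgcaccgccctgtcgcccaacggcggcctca

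A CHR motif was present in 13 of the 14 mitotic windows (92.9%), and in all 13 of those genes it lay within 100 bases before to 50 after the start. The exception was KIF2B, which had no counts in these cells. KIF4B had a CHR motif and CCAAT boxes, but it had at most 0.464 CPM in a library and was not called with either siRNA. Among transport kinesins 2 of the 12 with a window had a CHR motif (16.7%), in KIF5B 140 bases and in KIF16B 241 bases before the start. Over the 27305 genes of the table the share was 29% for the whole window and 14.2% for the region within 100 bases before to 50 after the start. A CCAAT box was present in 11 of 14 mitotic and 4 of 12 transport windows, against 39.7% of all genes. Both motifs stood in 1 window in 11 of 14 mitotic kinesins (78.6%), in 1 of 12 transport kinesins (KIF5B, 8.33%) and in 11.7% of all genes. KIF2C and KIF15 had the CHR motif without a CCAAT box. KIF24, a cilium kinesin, had both, but its RefSeq start lies outside the KIF24 gene as GENCODE 29 draws it. Starts of some other members lie outside their genes as well, but nearer, among them the mitotic KIF11, KIF14, KIF18B and KIF20B. KIF2A had neither motif. A match is a description of these letters and not a shown binding site, and the windows of KIFC3, KIF13B, KIF26B, KIF27, KIFC2, KIF19, KIF5A and KIF21B were not analysed here.

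**Figure D3:**
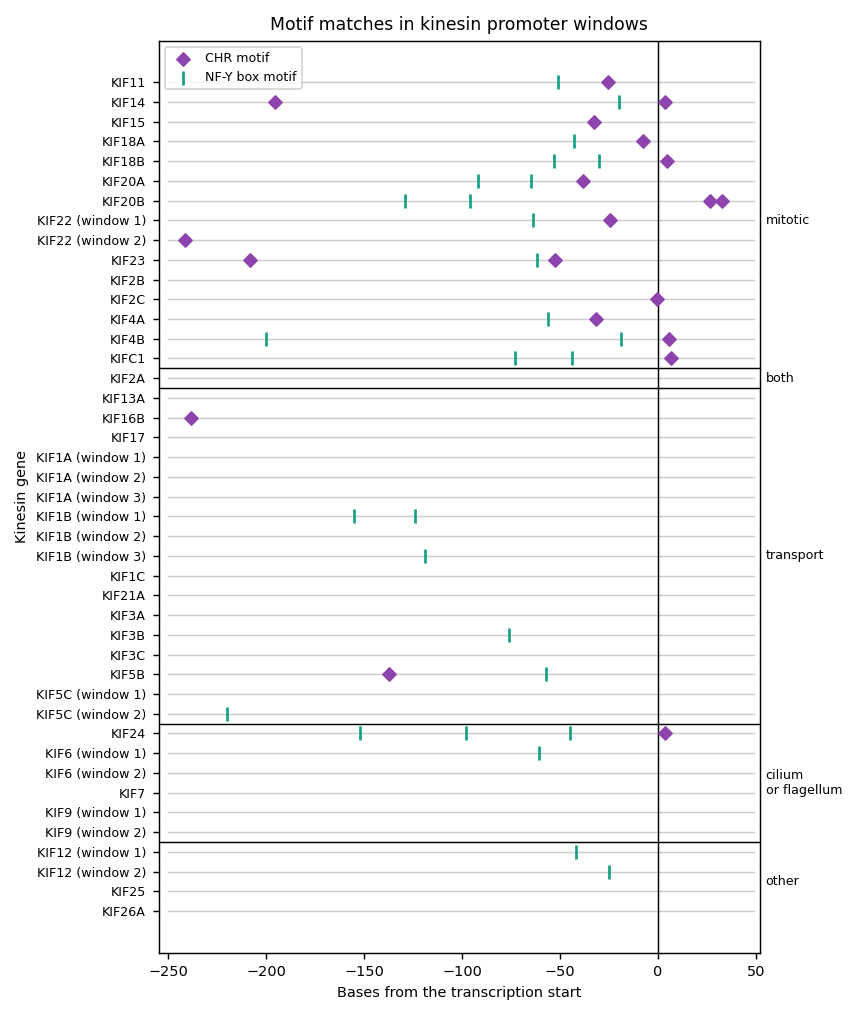
Centres of CHR motifs (diamonds) and CCAAT boxes (bars, labelled NF-Y box) in the RefSeq promoter windows of 34 kinesins, in bases from the transcription start; genes with more than 1 start have a line for each window. Mitotic kinesins other than KIF2B have a CHR motif within 100 bases before to 50 after the start, and transport kinesins have none there.

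Among the kinesins that assemble the spindle, KIF11, the kinesin-5 that slides antiparallel microtubules apart to make the spindle bipolar, had 100.03, 94.2 and 96.1 CPM in SKP2-1 libraries 1 to 3 and 109, 106 and 110.4 CPM in SKP2-2 libraries, against 212, 224 and 246 CPM in NC libraries. Every SKP2 library lay far below every NC library, and the SKP2-2 libraries lay just above the SKP2-1 libraries. The log2 fold change of KIF11 was -1.23 (SE 0.055, adjusted p = 1.56e-09) with SKP2-1 siRNA and -1.07 (SE 0.055, adjusted p = 5.07e-09) with SKP2-2 siRNA. KIF15, the kinesin-12 that can stand in for KIF11 in spindle bipolarity, had 26.9, 27.5 and 26.4 CPM in SKP2-1 libraries and 39.3, 36.6 and 38.0 CPM in SKP2-2 libraries, against 67.6, 75.7 and 80.0 CPM in NC libraries. It was lowest in SKP2-1 cells, and none of the 3 groups overlapped. KIF15 changed by -1.47 (SE 0.063, adjusted p = 1.2e-09) on the log2 scale with SKP2-1 siRNA and by -0.97 (SE 0.062, adjusted p = 3.49e-08) with SKP2-2 siRNA. KIFC1, a minus-end-directed kinesin-14 that focuses spindle poles and clusters extra centrosomes, had 72.8, 68.4 and 65.5 CPM in SKP2-1 libraries and 89.6, 93.1 and 89.3 CPM in SKP2-2 libraries, against 188, 187 and 177 CPM in NC libraries. The 3 groups were again apart. Its log2 fold change was -1.42 (SE 0.049, adjusted p = 2.5e-10) with SKP2-1 siRNA and -1.02 (SE 0.049, adjusted p = 2.54e-09) with SKP2-2 siRNA.

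Kinesins that move and align chromosomes fell as well. KIF2C (MCAK), which shortens microtubules at centromeres to correct faulty attachments, had 69.8, 70.5 and 66.4 CPM in SKP2-1 libraries and 86.3, 90.7 and 86.7 CPM in SKP2-2 libraries, against 209.7, 229 and 239 CPM in NC libraries. It was lowest in SKP2-1 cells, with no overlap of any groups, and its adjusted p was 1.08e-10 with SKP2-1 siRNA and 4.61e-10 with SKP2-2 siRNA (log2 fold changes -1.71 and -1.36). KIF18A, the kinesin-8 that damps kinetochore microtubule dynamics so that chromosomes align, had 26.9, 26.1 and 24.99 CPM in SKP2-1 libraries and 30.5, 29.6 and 28.1 CPM in SKP2-2 libraries, against 62.0, 71.1 and 73.3 CPM in NC libraries. Both SKP2 groups were far below NC and close to each other, with log2 fold changes of -1.40 (SE 0.067, adjusted p = 2.84e-09) with SKP2-1 siRNA and -1.23 (SE 0.066, adjusted p = 7.75e-09) with SKP2-2 siRNA. KIF18B, a kinesin-8 that works with KIF2C on astral microtubules, had 44.6, 41.8 and 39.7 CPM in SKP2-1 libraries and 56.7, 62.5 and 60.6 CPM in SKP2-2 libraries, against 132, 128 and 115 CPM in NC libraries. The 3 groups did not overlap, and KIF18B changed by -1.57 (SE 0.064, adjusted p = 7.31e-10) on the log2 scale with SKP2-1 siRNA and by -1.06 (SE 0.063, adjusted p = 1.76e-08) with SKP2-2 siRNA.

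KIF4A, a chromokinesin that also sets the length of the central spindle, had 48.6, 47.2 and 49.2 CPM in SKP2-1 libraries and 66.9, 69.6 and 66.5 CPM in SKP2-2 libraries, against 112, 128 and 135 CPM in NC libraries. The groups did not overlap, and the log2 fold change was -1.37 (SE 0.062, adjusted p = 1.81e-09) with SKP2-1 siRNA and -0.89 (SE 0.061, adjusted p = 7.5e-08) with SKP2-2 siRNA. KIF22, the chromokinesin that pushes chromosome arms away from the poles, averaged 43.7, 60.3 and 92.2 CPM in SKP2-1, SKP2-2 and NC cells. Its fall was the smallest among the 12 called mitotic kinesins with each siRNA, at -1.08 (adjusted p = 5.07e-09) and -0.61 (adjusted p = 7.76e-07) on the log2 scale for SKP2-1 and SKP2-2. KIF4B, an intronless copy of KIF4A, had 0.330, 0.205 and 0.264 CPM in SKP2-1 libraries and 0.321, 0.272 and 0.279 CPM in SKP2-2 libraries, against 0.281, 0.464 and 0.296 CPM in NC libraries. The groups overlapped and KIF4B did not pass the test with either siRNA, with 95% intervals of its log2 fold change of -1.01 to 0.23 for SKP2-1 and -0.88 to 0.34 for SKP2-2. Reads of KIF4A and KIF4B can be split between these near-identical genes, so the values of KIF4B are uncertain. KIF2B, a microtubule depolymerase of the spindle, had 0 counts in every library.

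The 4 cytokinesis members included the pair whose response was larger with SKP2-2 than with SKP2-1 siRNA. KIF14, which brings citron kinase to the midbody, had 49.1, 47.9 and 46.2 CPM in SKP2-1 libraries and 26.1, 24.7 and 27.2 CPM in SKP2-2 libraries, against 145, 156 and 163 CPM in NC libraries. It was lowest in SKP2-2 cells, the reverse of most mitotic members, and its level in SKP2-2 cells was 1.83 times lower than in SKP2-1 cells. KIF23 (MKLP1), the motor of the centralspindlin complex that organises the central spindle, had 66.3, 61.9 and 59.1 CPM in SKP2-1 libraries and 55.3, 54.2 and 55.4 CPM in SKP2-2 libraries, against 173, 178 and 188 CPM in NC libraries. The SKP2-2 libraries lay just under the SKP2-1 libraries, and both were far from NC. KIF14 changed by -1.69 (SE 0.055, adjusted p = 1.56e-10) with SKP2-1 siRNA and by -2.57 (SE 0.057, adjusted p = 4.87e-12) with SKP2-2 siRNA on the log2 scale. KIF23 changed by -1.53 (SE 0.051, adjusted p = 1.9e-10) with SKP2-1 siRNA and by -1.71 (SE 0.051, adjusted p = 5.66e-11) with SKP2-2 siRNA.

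KIF20A (MKLP2), which carries the chromosomal passenger complex to the central spindle, had 75.3, 72.6 and 69.8 CPM in SKP2-1 libraries and 91.6, 89.3 and 87.5 CPM in SKP2-2 libraries, against 189.5, 207 and 221 CPM in NC libraries. The groups did not overlap, and its log2 fold change was -1.50 (SE 0.057, adjusted p = 4.59e-10) with SKP2-1 siRNA and -1.20 (SE 0.056, adjusted p = 2.16e-09) with SKP2-2 siRNA. KIF20B, a related kinesin needed for completion of cytokinesis, had 79.0, 77.6 and 76.5 CPM in SKP2-1 libraries and 97.0, 92.9 and 97.0 CPM in SKP2-2 libraries, against 191, 207 and 221 CPM in NC libraries. It followed KIF20A closely, with log2 fold changes of -1.41 (SE 0.053, adjusted p = 4.59e-10) and -1.11 (SE 0.053, adjusted p = 2.54e-09) for SKP2-1 and SKP2-2. Exons of KIF20A overlap the expressed genes BRD8 and CDC23 on the other strand over 3.3% and 1.7% of their bases. The share is 1.3% for KIF18A with METTL15 and 1.7% for KIF4A with PDZD11. The strand used in counting is not given in the sources used here, so how reads in these shared bases were counted is not known.

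**Figure D4:**
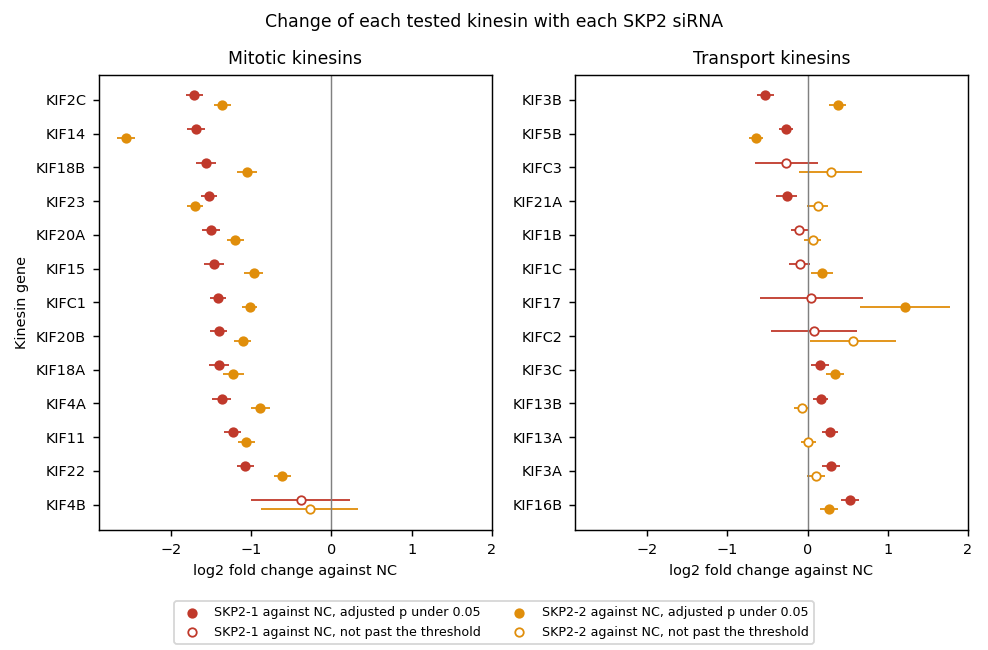
Log2 fold change against NC (x axis) of the 13 tested mitotic (left) and 13 tested transport (right) kinesins, for SKP2-1 (red, upper point of each pair) and SKP2-2 (orange, lower point), with 95% intervals; filled points have an adjusted p under 0.05. All mitotic points lie left of 0 and all but those of KIF4B are filled, and transport points lie on both sides.

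KIF2A, which shortens microtubules at spindle poles and also prunes axon branches in neurons, separated the siRNAs. It had 71.6, 72.2 and 70.6 CPM in SKP2-1 libraries and 102, 97.0 and 96.6 CPM in SKP2-2 libraries, against 92.3, 97.0 and 106 CPM in NC libraries. SKP2-1 libraries were all below the other groups, which overlapped. The log2 fold change was -0.46 (SE 0.053, adjusted p = 1.03e-05) with SKP2-1 siRNA and 0.00 with SKP2-2 siRNA (95% interval -0.10 to 0.10, adjusted p = 0.98), and SKP2-2 differed from SKP2-1 by 0.47 (adjusted p = 8.39e-06). KIF2A shares 9.0% of its exon bases with IPO11 on the same strand.

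The kinesin-2 motors, which carry vesicles and drive transport inside cilia, did not move together. KIF3B, a motor subunit of heterotrimeric kinesin-2, had 132, 132 and 137 CPM in SKP2-1 libraries and 262, 243 and 243 CPM in SKP2-2 libraries, against 176, 195 and 206 CPM in NC libraries. SKP2-1 libraries were all below NC and SKP2-2 libraries all above it. It fell by 0.53 (SE 0.057, adjusted p = 5.74e-06) on the log2 scale with SKP2-1 siRNA and rose by 0.37 (SE 0.056, adjusted p = 0.0001) with SKP2-2 siRNA, and was the only kinesin called in opposite directions. Its partner KIF3A had 29.03, 32.0 and 30.5 CPM in SKP2-1 libraries and 27.7, 27.1 and 25.6 CPM in SKP2-2 libraries, against 24.4, 25.5 and 24.9 CPM in NC libraries. KIF3A was highest in SKP2-1 cells and was called there (0.29, SE 0.057, adjusted p = 0.000955), and with SKP2-2 siRNA its log2 fold change was 0.10 (95% interval -0.01 to 0.22, adjusted p = 0.155). KIFAP3, which joins the KIF3A and KIF3B pair to cargo, averaged 48.4, 36.8 and 39.4 CPM in SKP2-1, SKP2-2 and NC cells, with log2 fold changes of 0.30 (adjusted p = 0.000963) and -0.10 (adjusted p = 0.181).

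KIF3C, an alternative partner of KIF3A, had 66.8, 68.7 and 67.8 CPM in SKP2-1 libraries and 73.6, 76.4 and 81.5 CPM in SKP2-2 libraries, against 64.8, 60.8 and 56.5 CPM in NC libraries. The groups did not overlap and KIF3C was highest in SKP2-2 cells, by 0.35 (SE 0.057, adjusted p = 0.000199) on the log2 scale over NC. The SKP2-1 call (0.16, adjusted p = 0.0346) was lost in 12 of 17 alternative analyses, among them those without NC replicate 2 (adjusted p = 0.0873), NC replicate 3 (0.113), SKP2-1 replicate 1 (0.066), 2 (0.104) or 3 (0.0901) and SKP2-2 replicate 1 (0.153) or 2 (0.0545). KIF17, the homodimeric kinesin-2, had 0.259, 0.333 and 0.527 CPM in SKP2-1 libraries and 0.888, 0.748 and 0.943 CPM in SKP2-2 libraries, against 0.394, 0.464 and 0.254 CPM in NC libraries. SKP2-2 libraries were all above the other groups, which overlapped, at 11 to 44 counts per library. KIF17 rose by 1.22 (SE 0.29, adjusted p = 0.00302) on the log2 scale with SKP2-2 siRNA, and with SKP2-1 siRNA the log2 fold change was 0.05 (95% interval -0.59 to 0.69, adjusted p = 0.923).

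KIF5B, the only kinesin-1 heavy chain above 10 counts in any library, had 512, 511 and 512 CPM in SKP2-1 libraries and 400.0, 393 and 393 CPM in SKP2-2 libraries, against 585, 623 and 648 CPM in NC libraries. The groups were ordered with SKP2-2 lowest and did not overlap. KIF5B fell by 0.27 (SE 0.045, adjusted p = 0.000246) on the log2 scale with SKP2-1 siRNA and by 0.65 (SE 0.045, adjusted p = 9.33e-08) with SKP2-2 siRNA, so the transport member with the most mRNA was lower with both. Its neuronal paralogues KIF5A and KIF5C had at most 3 and 8 counts in a library.

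Among the kinesin-3 motors of endosomes and other vesicles, KIF16B, which holds early endosomes through a lipid-binding domain, rose with both siRNAs. It had 26.3, 26.1 and 27.2 CPM in SKP2-1 libraries and 23.0, 21.8 and 21.9 CPM in SKP2-2 libraries, against 18.1, 17.7 and 19.5 CPM in NC libraries, with no overlap between groups. Its log2 fold change was 0.53 (SE 0.058, adjusted p = 7.35e-06) with SKP2-1 siRNA and 0.27 (SE 0.058, adjusted p = 0.00169) with SKP2-2 siRNA. KIF13A, a motor of recycling endosomes, had 140.0, 147 and 147 CPM in SKP2-1 libraries and 122, 119.5 and 119 CPM in SKP2-2 libraries, against 111, 121 and 126 CPM in NC libraries. SKP2-1 libraries were above all others, and SKP2-2 libraries lay within the NC range. KIF13A rose by 0.28 (SE 0.050, adjusted p = 0.000503) on the log2 scale with SKP2-1 siRNA, and with SKP2-2 siRNA the change was 0.01 (95% interval -0.09 to 0.11, adjusted p = 0.873). KIF13B, which binds the scaffold protein DLG1, had 73.7, 76.0 and 75.2 CPM in SKP2-1 libraries and 59.97, 63.7 and 67.1 CPM in SKP2-2 libraries, against 68.9, 67.2 and 64.7 CPM in NC libraries. SKP2-1 libraries were highest, and SKP2-2 and NC libraries overlapped. Its SKP2-1 call (0.16, adjusted p = 0.0159) was lost in 4 of 17 alternative analyses. Among them were those without SKP2-1 replicate 2 (adjusted p = 0.0623) or 3 (0.0544), and with SKP2-1 and NC cells fitted alone (0.169).

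KIF1B, which carries mitochondria and synaptic vesicle precursors, averaged 104 CPM in SKP2-1 cells, 117 CPM in SKP2-2 cells and 112 CPM in NC cells and was not called against NC. Its log2 fold change with SKP2-1 siRNA was -0.10 (adjusted p = 0.129), and it was called without NC replicate 1 (-0.17, adjusted p = 0.00314), without SKP2-2 replicate 1 (-0.14, adjusted p = 0.0183), and with the pair NC replicate 1 and SKP2-2 replicate 3 left out (-0.17, adjusted p = 0.000667). KIF1C, a fast carrier of secretory vesicles, had 326, 322 and 328 CPM in SKP2-1 libraries and 360.0, 404 and 420.4 CPM in SKP2-2 libraries, against 384, 339 and 322 CPM in NC libraries. NC replicate 1 lay inside the SKP2-2 range, and NC replicate 3 lay just below the SKP2-1 libraries. The SKP2-2 call of KIF1C (0.18, SE 0.068, adjusted p = 0.0425) was lost in 13 of 17 alternative analyses. It was kept without NC replicate 1 (0.25, adjusted p = 0.00102) and with that library and SKP2-2 replicate 3 both left out (0.21, adjusted p = 0.00147), and lost without NC replicate 2 (0.138) or 3 (0.163), without SKP2-1 replicate 1 (0.064), 2 (0.0628) or 3 (0.0637), and without SKP2-2 replicate 1 (0.104), 2 (0.129) or 3 (0.164), where the bracketed values are adjusted p. KIF21A, a kinesin-4 that limits microtubule growth at the cell cortex, had 32.1, 31.1 and 32.6 CPM in SKP2-1 libraries and 44.4, 40.7 and 40.3 CPM in SKP2-2 libraries, against 34.7, 38.8 and 41.2 CPM in NC libraries. SKP2-1 libraries were all lowest (-0.26 on the log2 scale, SE 0.066, adjusted p = 0.00564), and SKP2-2 overlapped with NC (0.13, adjusted p = 0.13; 0.18, adjusted p = 0.0349 without NC replicate 3).

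The minus-end-directed kinesin-14 members KIFC3 and KIFC2 followed the libraries that stood apart. KIFC3, which acts at adherens junctions, had 152, 155 and 149 CPM in SKP2-1 libraries and 183, 228 and 258 CPM in SKP2-2 libraries, against 234, 171 and 142 CPM in NC libraries. KIFC2 had 30.9, 30.4 and 29.8 CPM in SKP2-1 libraries and 32.8, 41.5 and 53.6 CPM in SKP2-2 libraries, against 40.3, 24.4 and 21.7 CPM in NC libraries. For both genes NC replicate 1 was the highest NC library and SKP2-2 replicate 3 the highest of all, and the SKP2-1 libraries hardly differed. Against NC, KIFC3 had log2 fold changes of -0.27 (95% interval -0.66 to 0.13) with SKP2-1 siRNA and 0.29 (-0.11 to 0.69) with SKP2-2 siRNA, and neither passed the test. KIFC3 was called with SKP2-2 siRNA without NC replicate 1 (0.49, adjusted p = 0.0393). KIFC2 changed by 0.08 (adjusted p = 0.844) with SKP2-1 siRNA and 0.57 (adjusted p = 0.136) with SKP2-2 siRNA. KIFC2 with SKP2-2 siRNA passed without NC replicate 1 (0.87, adjusted p = 0.0126). With NC replicate 1 and SKP2-2 replicate 3 both left out, KIFC2 was called with SKP2-1 siRNA (0.38, adjusted p = 0.00679) and with SKP2-2 siRNA (0.69, adjusted p = 0.000284). What set those libraries apart was not tested. FOXH1, on the other strand, covers 17.8% of the exon bases of KIFC2 and had at most 17 counts.

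**Figure D5:**
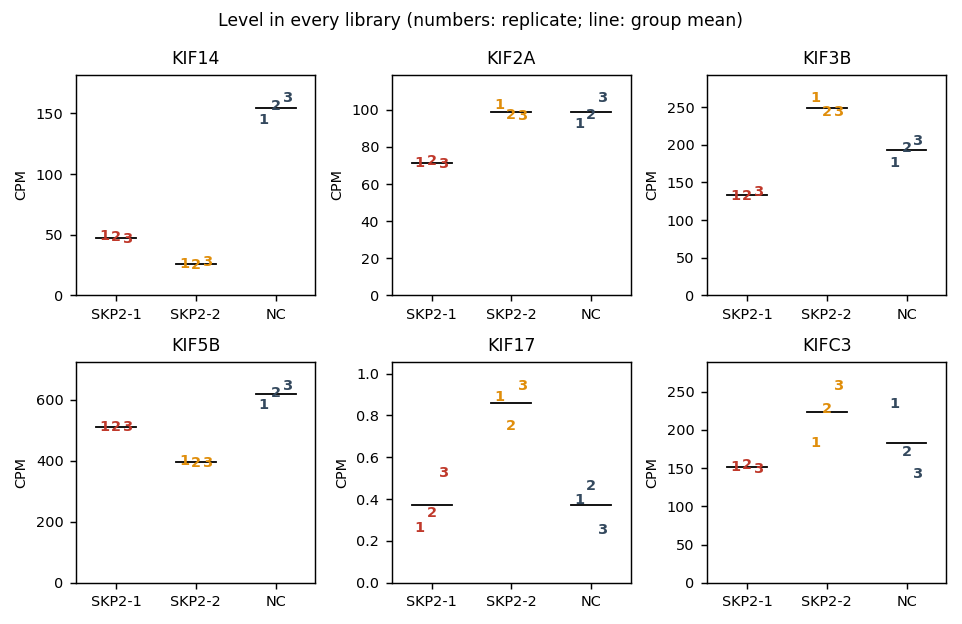
CPM of 6 kinesins in every library, with numerals for the replicate and lines for the group means; each y axis starts at 0. KIF14 is lowest in SKP2-2 libraries, KIF2A is low in SKP2-1 libraries only, KIF3B parts in opposite directions around NC, KIF5B is lowest in SKP2-2 libraries, KIF17 is high in SKP2-2 libraries, and in KIFC3 the NC and SKP2-2 libraries overlap.

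Among kinesins of the cilium, KIF24 fell with both siRNAs. It shortens microtubules at the mother centriole and holds back cilium formation in cycling cells. It had 12.7, 11.9 and 12.6 CPM in SKP2-1 libraries and 19.6, 18.8 and 19.2 CPM in SKP2-2 libraries, against 28.6, 30.4 and 33.0 CPM in NC libraries, with no overlap between groups. KIF24 fell by 1.31 (SE 0.066, adjusted p = 4.78e-09) on the log2 scale with SKP2-1 siRNA and by 0.68 (SE 0.065, adjusted p = 1.52e-06) with SKP2-2 siRNA. UBAP1, on the other strand, covers 2.3% of the exon bases of KIF24 and had up to 5026 counts. KIF27, a relative of KIF7, had 15.4, 17.7 and 15.6 CPM in SKP2-1 libraries and 12.7, 12.3 and 12.7 CPM in SKP2-2 libraries, against 15.3, 16.004 and 15.8 CPM in NC libraries. SKP2-2 libraries were all lowest, and KIF27 fell by 0.32 (SE 0.069, adjusted p = 0.00158) with SKP2-2 siRNA, while with SKP2-1 siRNA the log2 fold change was 0.04 (adjusted p = 0.639).

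KIF7, which regulates Hedgehog signalling at the tip of the cilium, averaged 4.42, 4.33 and 4.06 CPM in SKP2-1, SKP2-2 and NC cells. KIF7 was not called against NC (0.13, adjusted p = 0.625, and 0.11, adjusted p = 0.691), and with NC replicate 1 and SKP2-2 replicate 3 both left out it was called with SKP2-1 siRNA (0.33, adjusted p = 0.0382). TICRR, on the other strand, covers 11.8% of the exon bases of KIF7 and had up to 1988 counts. KIF9, of motile cilia and flagella, averaged 6.34, 5.63 and 5.80 CPM in SKP2-1, SKP2-2 and NC cells. KIF6 stayed under 0.5 CPM in every library. Neither KIF9 nor KIF6 passed the test with either siRNA. On the other strand of KIF9 lie KIF9-AS1 (14.9% of its exon bases, up to 122 counts) and KLHL18 (3.0%, up to 2733 counts). KIF26B, a kinesin without motor activity, had 1.20, 0.846 and 0.730 CPM in SKP2-1 libraries and 0.641, 0.657 and 0.857 CPM in SKP2-2 libraries, against 0.281, 0.531 and 0.381 CPM in NC libraries. All SKP2 libraries were above all NC libraries, at 10 to 51 counts per library, and KIF26B rose by 1.18 (SE 0.28, adjusted p = 0.00333) on the log2 scale with SKP2-1 siRNA. Its SKP2-2 call (0.83, SE 0.29, adjusted p = 0.0283) was lost in 7 of the 16 alternative analyses that tested it. Among them were those without NC replicate 1 (adjusted p = 0.0799) or 3 (0.0768), without SKP2-2 replicate 1 (0.0509) or 3 (0.109), and with the pair NC replicate 1 and SKP2-2 replicate 3 left out (0.51, adjusted p = 0.209). KIF25 stayed under 0.5 CPM and was not called.

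The remaining 8 kinesins could not be tested. KIF2B and KIF26A had 0 counts in all libraries, and KIF19, KIF12, KIF1A, KIF5A, KIF5C and KIF21B had at most 10 counts in any library. A count of 0 allows up to 3 counts, which is 0.0608 to 0.0843 CPM depending on the library, and covers counting error only. These levels were not detectable at this depth or too low to compare.

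The siRNAs were also compared with each other. In SKP2-2 against SKP2-1 cells 26 of the 34 kinesins were called, 18 higher and 8 lower, where 50.5% of all genes were called, 25.2% higher and 25.3% lower. Of the kinesins, only KIF17 was at least 2-fold higher, as were 2.57% of all genes, and 0 were at least 2-fold lower, as were 4.39% of all genes. Mitotic members were higher in SKP2-2 cells in 10 of 13 cases, with a median log2 difference of 0.30 beside 0.03 over all genes, so the fall was less deep with the second siRNA for most of them. KIF18B (0.51, SE 0.063, adjusted p = 1.67e-05), KIF15 (0.49, SE 0.062, adjusted p = 2.11e-05) and KIF4A (0.48, SE 0.062, adjusted p = 2.22e-05) differed most in that direction. The exceptions were KIF14 (-0.88, SE 0.056, adjusted p = 3.28e-08) and KIF23 (-0.18, SE 0.051, adjusted p = 0.00867), which were lower in SKP2-2 cells. The KIF23 difference did not pass without SKP2-1 replicate 1 (-0.14, adjusted p = 0.0536). Those of KIF11 (0.17, adjusted p = 0.0206) and KIF18A (0.18, adjusted p = 0.041) were small. KIF11 was not called without SKP2-1 replicate 2 (0.0912) or 3 (0.0692) or SKP2-2 replicate 3 (0.0613), where the bracketed values are adjusted p. The KIF18A call was lost in 8 of 17 alternative analyses. Among them were those without NC replicate 2 (0.0577), SKP2-1 replicate 1 (0.058), 2 (0.0963) or 3 (0.152) and SKP2-2 replicate 1 (0.0815) or 2 (0.102), again with adjusted p in brackets.

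Transport members split between the siRNAs, with 6 higher and 5 lower in SKP2-2 than in SKP2-1 cells. KIF17 (1.17, SE 0.28, adjusted p = 0.0036) and KIF3B (0.90, SE 0.057, adjusted p = 2.97e-08) differed most among the higher ones. KIF24, from the cilium group, was 0.63 higher (SE 0.066, adjusted p = 3.67e-06). KIF5B (-0.37, SE 0.045, adjusted p = 1.51e-05), KIF13A (-0.27, SE 0.050, adjusted p = 0.00063), KIF16B (-0.26, SE 0.058, adjusted p = 0.00236) and KIF13B (-0.24, SE 0.050, adjusted p = 0.00137) were lower, as was KIF27 (-0.37, SE 0.069, adjusted p = 0.000603). Small differences of KIF1B, KIF3A and KIF3C were lost with 1 library left out. KIF1B (0.17, adjusted p = 0.0174) was not called without SKP2-1 replicate 1 (0.0621) or 2 (0.0628) or SKP2-2 replicate 2 (0.0642). KIF3A (-0.19, adjusted p = 0.015) was not called without SKP2-1 replicate 2 (0.0799) or SKP2-2 replicate 3 (0.0694), and KIF3C (0.19, adjusted p = 0.0143) without SKP2-1 replicate 1 (0.0595) or SKP2-2 replicate 3 (0.071). KIFC3 was 0.55 higher in SKP2-2 cells (95% interval 0.16 to 0.95, adjusted p = 0.0606) and passed without NC replicate 1 (0.0163) or 3 (0.0381) and without NC replicate 1 and SKP2-2 replicate 3 (0.45, adjusted p = 0.0344). KIFC2 differed by 0.49 (adjusted p = 0.187), and by 0.31 (adjusted p = 0.0164) without those 2 libraries.

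Of 21 spindle and midzone partners, 19 were lower and 2 higher with SKP2-1 siRNA, and 19 were lower and 1 higher with SKP2-2 siRNA. That is 100% and 95.2% of the list called, beside 45.5% and 49.4% of all genes. Called lower were 20.5% and 24.1% of all genes. The median log2 fold changes of the list were -1.28 and -0.84, beside 0.02 and 0.03 over all genes. CENPE, the kinetochore kinesin-7 whose symbol falls outside the rule for members, averaged 74.6, 87.0 and 219 CPM in SKP2-1, SKP2-2 and NC cells (log2 fold changes -1.56, adjusted p = 5.62e-10, and -1.33, adjusted p = 1.72e-09). RACGAP1, the partner of KIF23 in centralspindlin, fell by 1.22 with SKP2-1 siRNA and by 0.88 with SKP2-2 siRNA (adjusted p = 4.18e-09 and 6.55e-08). CIT, the citron kinase that KIF14 binds, fell by 1.25 with SKP2-1 siRNA and by 0.69 with SKP2-2 siRNA (adjusted p = 3.98e-10 and 4.88e-08), and was 0.56 higher in SKP2-2 than in SKP2-1 cells (adjusted p = 3.22e-07), where KIF14 was lower. MKI67, the proliferation marker, averaged 355, 611 and 835 CPM in SKP2-1, SKP2-2 and NC cells. MAPRE3, an end-binding protein of growing microtubules, was higher with both siRNAs (1.00, adjusted p = 4.34e-07, and 0.81, adjusted p = 2.76e-06).

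Of 17 tested cargo adaptors and accessory chains, 6 were higher and 1 lower with SKP2-1 siRNA, and 7 were higher and 2 lower with SKP2-2 siRNA, with medians of 0.10 and 0.15. The shares called, 41.2% with SKP2-1 siRNA and 52.9% with SKP2-2 siRNA, were near the 45.5% and 49.4% of all genes. RAB27B, a small GTPase of secretory vesicles, averaged 164, 119.6 and 65.0 CPM in SKP2-1, SKP2-2 and NC cells and rose by 1.34 (adjusted p = 1.57e-09) and 0.88 (adjusted p = 5.99e-08). KIFBP, which binds several kinesin motor domains and holds them off microtubules, fell by 0.78 with SKP2-1 siRNA and by 0.43 with SKP2-2 siRNA (adjusted p = 1.48e-08 and 3.26e-06). TRAK1, the mitochondrial adaptor of KIF5B, rose by 0.30 (adjusted p = 3.94e-05) and 0.22 (adjusted p = 0.000412). The light chains KLC1, KLC2, KLC3 and KLC4 of kinesin-1 did not pass the test with either siRNA.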

How the data were processed

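Per the labels' protocols, total RNA libraries were made with standard Illumina protocols. Each library has 1 file, in which the authors deposited whole-number counts of reads for every Ensembl gene, not normalized. The submitters' processing notes name HTSeq 0.6.1 and STAR, besides FastQC 0.11.2, Trim Galore 0.4.1 and DESeq2 1.16.1. The genome build, annotation and strand setting are not given in the sources used here. The 5 summary lines of each file were left out of library totals (reads outside genes made up 5.34 to 5.92% of all entries of a file and ambiguous reads 3.87 to 3.97%). A listed marker gene is not reported here.

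Symbols came from the supplied name table for 57754 of 58395 identifiers and from GENCODE 29 for 521. Of 43 entries with a kinesin symbol, 1 was not protein-coding and was left out. Exon lengths and overlaps are from GENCODE 29. The members and the gene lists were chosen with earlier results of these data known.

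In R 4.3.3, edgeR 4.0.16 kept 16575 genes (filterByExpr, minimum count 10, minimum total 15), scaled libraries by TMM and ran a robust quasi-likelihood fit over all 9 libraries with group as the only term. Tests were two-sided, with Benjamini-Hochberg adjustment over all genes and a threshold of 0.05. CPM are per 1 M TMM-scaled gene counts. The SE is the log2 fold change divided by the square root of F, and intervals are 1.96 SE. The code was tested on simulated data. Alternatives were other scalings, filters, DESeq2 1.42.0, the 2 compared groups alone, a replicate block, libraries left out and other role classes.

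Values per library are given for 5 kinds of members. The first is the 10 with the largest smaller change among those called alike with both siRNAs. The second is any called in opposite directions. The third is the 6 largest in each direction between siRNAs. The fourth is the 8 transport members with the largest change among those called against NC. The last is any tested mitotic member that was not called. KIF2A, KIF1C, KIFC3, KIFC2 and KIF26B were added after their values were seen.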

Additional observations from a re-analysis of the deposited data

Results flagged for a closer look

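KIF3B met the rule for opposite effects of the siRNAs. It had 132, 132 and 137 CPM in SKP2-1 libraries and 262, 243 and 243 CPM in SKP2-2 libraries, against 176, 195 and 206 CPM in NC libraries. All SKP2-1 libraries lay below all NC libraries, and all SKP2-2 libraries lay above them. The difference between the siRNAs was tested directly as SKP2-2 against SKP2-1 cells: 0.90 on the log2 scale (edgeR's quasi-likelihood test, adjusted p = 2.97e-08). It kept its direction and its call under the 17 alternatives run on all members. No group had the 4 samples that a search for outlying libraries needs.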

How the results depend on the processing

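Of 102 results (34 kinesins in 3 comparisons), 60 calls were kept under every alternative that tested the gene. Another 10 were lost in at least 1, 9 were gained in at least 1 and 0 called values changed sign. The calls of KIF17 and KIF26B were tested in 16 of the 17 alternatives, since the 1 CPM filter left those genes out. Total counts of called members stayed within 1.5 times for all kinesins, for mitotic and for transport kinesins, while the small cilium class gained KIF7 and the other kinesins lost KIF26B in some alternatives. The 12 mitotic kinesins stayed called lower with each siRNA under every alternative. The transport median with SKP2-1 siRNA was -0.017 without a filter on low counts, -0.05 with the 1 CPM filter and -0.018 with the 2 groups alone, and ran from -0.103 to 0.079 with 1 library left out. With SKP2-2 siRNA it was 0.12 with the 1 CPM filter and 0.25 with DESeq2, and ran from 0.14 to 0.25 with 1 library left out. Between the siRNAs it was 0.28 without a filter and 0.27 with DESeq2. The mitotic median with SKP2-1 siRNA was -1.49 with the 2 groups alone and without both NC replicate 1 and SKP2-2 replicate 3, and ran from -1.49 to -1.40 with 1 library left out. The unfiltered and 1 CPM fits test other numbers of members; the cause of the other shifts was not tested. The deviations of same-numbered SKP2-2 and NC libraries from their group means correlated at -0.498, 0.005 and -0.455. Those of SKP2-1 and NC libraries correlated at 0.033, 0.006 and 0.055. Across numbers, NC replicate 1 and SKP2-2 replicate 3 correlated at 0.502, and NC replicate 3 and SKP2-2 replicate 1 at 0.453. Deviations from means of 3 libraries cannot show whether the libraries were paired. With a replicate block the kinesins called were 22, 19 and 25 for SKP2-1 against NC, SKP2-2 against NC and SKP2-2 against SKP2-1. Depth limits KIF4B, KIF6, KIF17, KIF25 and KIF26B, at 51 counts or fewer in any library.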

Other observations

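Of 26 cytoplasmic dynein and dynactin genes, which make up and regulate the main minus-end motor, 5 were higher and 3 lower with SKP2-1 siRNA (edgeR's quasi-likelihood test), and 3 were higher and 12 lower with SKP2-2 siRNA. That is 30.8% and 57.7% of the list, beside 45.5% and 49.4% of all genes. CAPZA1, an actin-capping subunit that is also part of dynactin, had 62.8, 62.3 and 60.9 CPM in SKP2-1 libraries and 284, 259.8 and 264 CPM in SKP2-2 libraries, against 322, 359 and 382 CPM in NC libraries. It was far lower in SKP2-1 cells (-2.52 on the log2 scale, adjusted p = 3.21e-11) than in SKP2-2 cells (-0.40, adjusted p = 9.33e-05), and SKP2-2 differed from SKP2-1 by 2.12 (adjusted p = 3.56e-11). DYNC1LI2, a dynein light intermediate chain, had log2 fold changes of 0.02 (adjusted p = 0.777) with SKP2-1 siRNA and -0.75 (adjusted p = 1.38e-08) with SKP2-2 siRNA. DYNC1H1, the dynein heavy chain, rose by 0.49 (adjusted p = 2.53e-06) with SKP2-1 siRNA and changed by -0.15 (adjusted p = 0.0222) with SKP2-2 siRNA.

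Of 11 tubulin genes, 2 were higher and 6 lower with SKP2-1 siRNA, and 0 were higher and 5 lower with SKP2-2 siRNA, which is 72.7% and 45.5% of the list beside those 45.5% and 49.4% of all genes. TUBA1A had 267, 269 and 278 CPM in SKP2-1 libraries and 123.2, 126 and 120.3 CPM in SKP2-2 libraries, against 159, 174 and 176 CPM in NC libraries. It rose by 0.68 (adjusted p = 1.04e-07) with SKP2-1 siRNA and changed by -0.46 (adjusted p = 3.63e-06) with SKP2-2 siRNA, while the closely related TUBA1B was lower with both (-0.70, adjusted p = 1.08e-06, and -0.62, adjusted p = 3.06e-06). Reads shared between such similar genes make single tubulin values uncertain. BIRC5 (survivin), the passenger complex subunit, averaged 43.1, 151 and 169 CPM in SKP2-1, SKP2-2 and NC cells, with log2 fold changes of -1.98 (adjusted p = 3.93e-11) and -0.17 (adjusted p = 0.0144), and a difference of 1.81 (adjusted p = 3.56e-11) between the siRNAs. The cause of these differences between the siRNAs was not tested.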
